A study of Glycine max with 24 samples.

Results

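PAD4, PBS1-2 (listed as LOC100305406), PR10 and VAMP721D are soybean genes of salicylate and immune signalling, and 7 probe sets of the soybean array carry 1 of these 4 symbols as their single annotated gene. Each probe set pools short probes for a transcript, and some sets are shared by several similar transcripts. The array held 37593 soybean probe sets, of which 8677, for 6029 genes in all, had 1 annotated gene. PAD4 was read by 2 probe sets, VAMP721D by 3, and PBS1-2 and PR10 by 1 each. The Entrez gene numbers are 100788725 for PAD4, 100305406 for PBS1-2, 100527073 for PR10 and 100779673 for VAMP721D. The genes were chosen by their measured log2 levels, because these differed between an aphid-resistant and an aphid-susceptible cultivar, so every cultivar difference, with or without aphids, is given here as a description and carries no test. The aphid effect within a cultivar and the difference between days were not themselves the measures of choice, and they were tested. They share arrays with the cultivar differences, in particular the uninfested susceptible arrays of day 1. The aphid effects and the day differences within either cultivar are therefore not independent of the choice.

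Total RNA from the third trifoliate leaves of Glycine max was hybridised to 24 arrays of 1 colour. The 8 groups of 3 arrays were the susceptible cultivar SD01-76R and the resistant cultivar LD05-16060, each without aphids or with soybean aphids, a phloem-feeding insect, after 1 or 7 days. Each infested plant received 30 aphids at the V3 stage, control plants received none, every plant was netted, and aphids were taken off before sampling. Growth was at 25 C under 16 h of light, and the labels name the cultivars but no resistance gene. Plants sampled on day 7 were older than those of day 1 in every group, so plant age and time under aphids cannot be told apart in a day difference.

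PAD4 encodes a lipase-like protein that works with EDS1 upstream of salicylate accumulation, and in Arabidopsis it also limits feeding by the green peach aphid. PBS1 in Arabidopsis is a cytoplasmic protein kinase whose cleavage by a bacterial protease is sensed by an immune receptor. PR10 proteins are small intracellular proteins that accumulate after infection and wounding, and VAMP721 proteins are vesicle SNAREs that carry secretory cargo, defence cargo included, to the plasma membrane.

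Values are deposited log2 intensities after quantile normalization of the soybean probe sets, so 1 unit is a doubling. Differences are given with the standard error (SE) of a limma fit of the 8 group means, and a difference was called at a Benjamini-Hochberg adjusted p of 0.05 over all 37593 probe sets. The leaf origin of the RNA was visible in the markers: 4 of 7 leaf mesophyll genes exceeded the 95th percentile of intensities and 0 lay below the median, whereas 17 of 19 root, nodule and seed genes and 8 of 9 phloem genes lay below the median. Arrays correlated with one another at a mean r of 0.900 for the array least like the rest and 0.966 for the most alike. The 3 arrays least like the rest were replicate 1 of uninfested susceptible leaves on day 1, replicate 1 of uninfested resistant leaves on day 7, and replicate 2 of infested resistant leaves on day 1. The 3' minus 5' signal of 5 control transcripts, a measure of RNA quality, was highest in uninfested susceptible leaves on day 1, at 1.51 ± 0.44 (SD, n = 3), against group means of 0.90 to 1.25 elsewhere. In leaf RNA of this kind, fewer cells of a type and less RNA per cell cannot be told apart.

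PAD4 was lowest in uninfested susceptible leaves on day 1 and highest in uninfested resistant leaves on day 7, by both of its probe sets. On day 1 the leading probe set, the one of higher mean, read 6.51, 7.48 and 7.24 in uninfested susceptible leaves and 8.10, 7.64 and 7.74 in infested ones. In resistant leaves of day 1 it read 8.69, 8.17 and 7.86 without aphids and 8.34, 7.79 and 8.16 with them. All 3 uninfested susceptible arrays lay below all 3 arrays of every other group of that day. On day 7 the susceptible arrays read 7.95, 9.08 and 7.48 without aphids and 9.45, 8.82 and 8.04 with them. The resistant arrays of day 7 read 8.58, 9.11 and 9.19 without aphids and 9.07, 8.13 and 8.09 with them. The day 7 groups overlapped, with 1 uninfested susceptible array as high as the resistant ones.

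The second PAD4 probe set read 7.05, 7.27 and 7.28 in uninfested and 7.76, 7.73 and 7.64 in infested susceptible leaves of day 1. In resistant leaves of day 1 it read 7.30, 7.65 and 7.54 without aphids and 7.85, 7.07 and 7.64 with them. Again the uninfested susceptible arrays were below the infested ones, and below the uninfested resistant ones only narrowly. On day 7 the susceptible arrays read 7.64, 8.14 and 7.40 without aphids and 8.50, 8.04 and 7.54 with them. The resistant arrays of day 7 read 8.21, 8.81 and 8.34 without aphids and 8.58, 8.15 and 7.82 with them. Across the 24 arrays the 2 PAD4 probe sets had a Pearson r of 0.83 and a Spearman rho of 0.81, and the r was 0.77 for deviations from the group means. The arrays share normalization and RNA quality, so these values describe the arrays.

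In order of group means, PAD4 by its leading probe set ran from uninfested resistant leaves of day 7 at 8.96, through infested susceptible leaves of day 7 at 8.77 and infested resistant leaves of day 7 at 8.43, to uninfested resistant leaves of day 1 at 8.24. Uninfested susceptible leaves of day 7 at 8.17, infested resistant leaves of day 1 at 8.10 and infested susceptible leaves of day 1 at 7.83 followed, and uninfested susceptible leaves of day 1 were last at 7.08. Each neighbour in this order overlapped the next, except that the last group lay clear of the one above it. By the second probe set the means ran from 8.45 to 7.20, with uninfested resistant leaves of day 7 again first and uninfested susceptible leaves of day 1 again last and clear of the next group.

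PBS1-2 was higher in resistant than in susceptible leaves in all 4 matched conditions. On day 1 its probe set read 7.21, 7.30 and 7.06 in uninfested and 7.79, 7.41 and 7.22 in infested susceptible leaves. Resistant leaves on day 1 read 8.01, 8.09 and 7.65 without aphids and 7.83, 7.64 and 7.89 with them. Without aphids the cultivars did not overlap, and with aphids susceptible replicate 1 reached into the resistant range. On day 7 susceptible leaves read 7.56, 7.53 and 7.00 without aphids and 7.73, 7.77 and 7.52 with them. Resistant leaves of day 7 read 7.99, 8.18 and 7.99 without aphids and 8.13, 8.03 and 7.69 with them. Over all conditions the susceptible arrays had a median of 7.46 and a range of 7.00 to 7.79, the resistant arrays a median of 7.99 and a range of 7.64 to 8.18, and 9 of the 12 resistant arrays lay above every susceptible one. The 4 resistant group means, 8.05 to 7.79, all ranked above the 4 susceptible ones, 7.67 to 7.19, though every group overlapped its neighbour in the order.

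PR10 had the widest range of the 4 genes, from 6.24 to 11.25. Near-identical copies of PR10 genes may share its probes, so its level may be that of several copies. On day 1 its probe set read 6.24, 9.55 and 9.62 in uninfested and 10.93, 10.63 and 10.50 in infested susceptible leaves. Resistant leaves of day 1 read 11.25, 10.68 and 10.64 without aphids and 11.11, 9.80 and 11.22 with them. Uninfested susceptible leaves were thus below every other array of day 1, with replicate 1 far below its own group. On day 7 the susceptible arrays read 10.50, 11.15 and 10.33 without aphids and 10.24, 11.00 and 9.58 with them. The resistant arrays of day 7 read 7.77, 10.22 and 10.64 without aphids and 11.22, 9.85 and 10.02 with them. The low array of each cultivar, at 6.24 and 7.77, was among the 3 arrays least like the rest, and the part of array quality in these 2 values was not tested. Group means ran from 10.85 in uninfested resistant leaves of day 1 to 8.47 in uninfested susceptible leaves of day 1, and every group overlapped its neighbour in the order.

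VAMP721D, by its leading probe set, was the gene that most nearly separated the cultivars. On day 1 it read 8.03, 7.91 and 7.82 in uninfested and 8.41, 7.83 and 8.07 in infested susceptible leaves. Resistant arrays on day 1 read 8.92, 9.09 and 8.92 without aphids and 8.65, 8.87 and 8.76 with them. No resistant array of day 1 overlapped a susceptible one of that day. On day 7 the susceptible arrays read 8.09, 8.34 and 8.22 without aphids and 8.65, 8.65 and 8.32 with them. The resistant arrays of day 7 read 9.11, 9.03 and 9.20 without aphids and 9.09, 9.13 and 9.14 with them. Susceptible arrays had a median of 8.16 and reached 8.65, resistant arrays had a median of 9.06, and 11 of the 12 resistant arrays lay above every susceptible one. In order of means, the resistant groups ran from 9.12 on day 7 with aphids to 8.76 on day 1 with aphids, and the susceptible groups from 8.54 on day 7 with aphids to 7.92 on day 1 without. Infested resistant leaves of day 1 lay clear below uninfested ones, and every other neighbouring pair overlapped. The share of all probe sets separated in that way was not counted, so nothing is read from it.

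**Figure D1:**
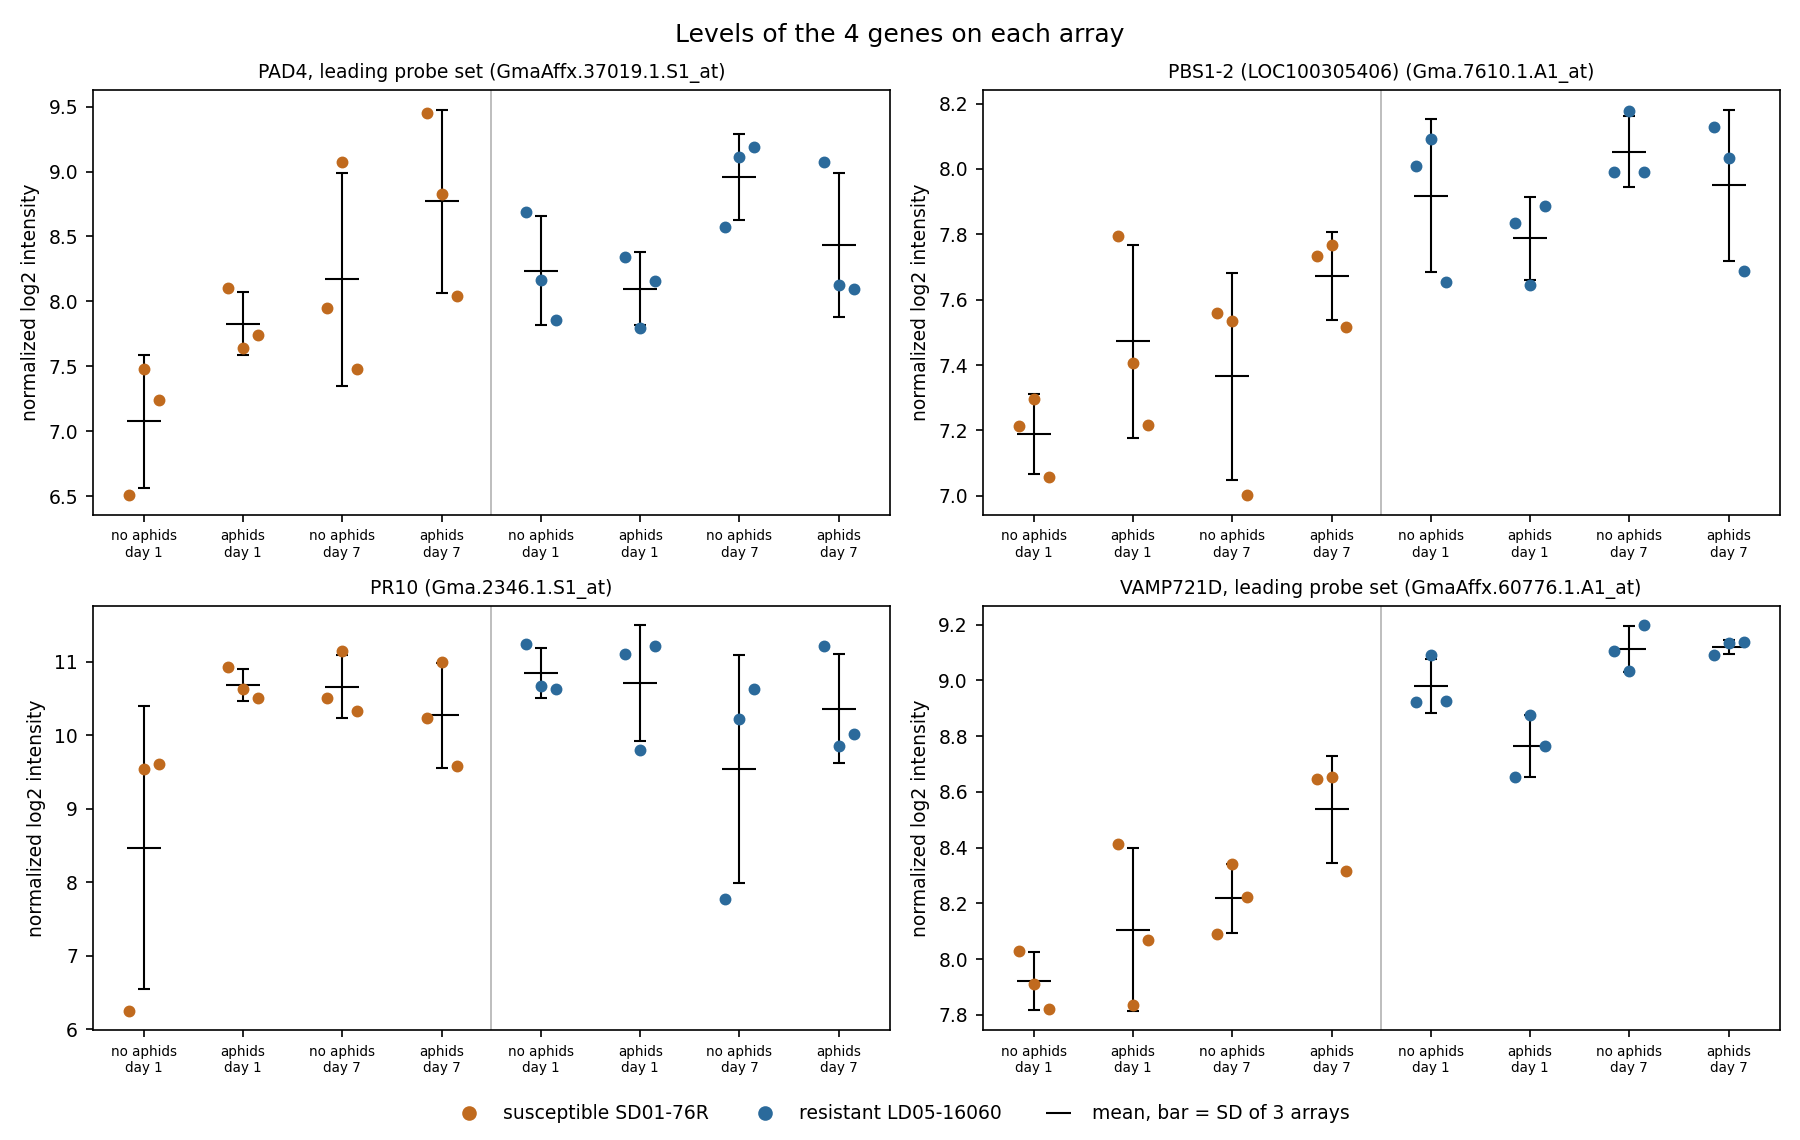
Normalized log2 intensity of PAD4, PBS1-2, PR10 and VAMP721D by the leading probe set of each, in 8 groups of 3 arrays (points), with the group mean and SD (bars). Resistant arrays lie above susceptible ones for VAMP721D, where 11 of 12 exceed every susceptible array, while PR10 shows 1 low array in each cultivar, at 6.24 and 7.77.

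The other VAMP721D probe sets did not follow the first. The second ranged from 6.38 to 7.47 with a median of 6.75 in susceptible arrays, and from 6.46 to 7.56 with a median of 6.83 in resistant ones. The lowest ranged from 5.34 to 6.23 over all arrays, close to the 5th percentile of all values, 5.28, and whether it lies above background is unknown. Their Pearson r with the leading probe set over 24 arrays was 0.27 and 0.06. In uninfested leaves of day 1 the second probe set also read higher in every resistant array, by 0.60 ± 0.25 (SE) in the mean, but with aphids on day 1 the difference was -0.48. A cultivar difference in all 4 conditions was thus seen with 1 of the 3 VAMP721D probe sets.

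**Figure D2:**
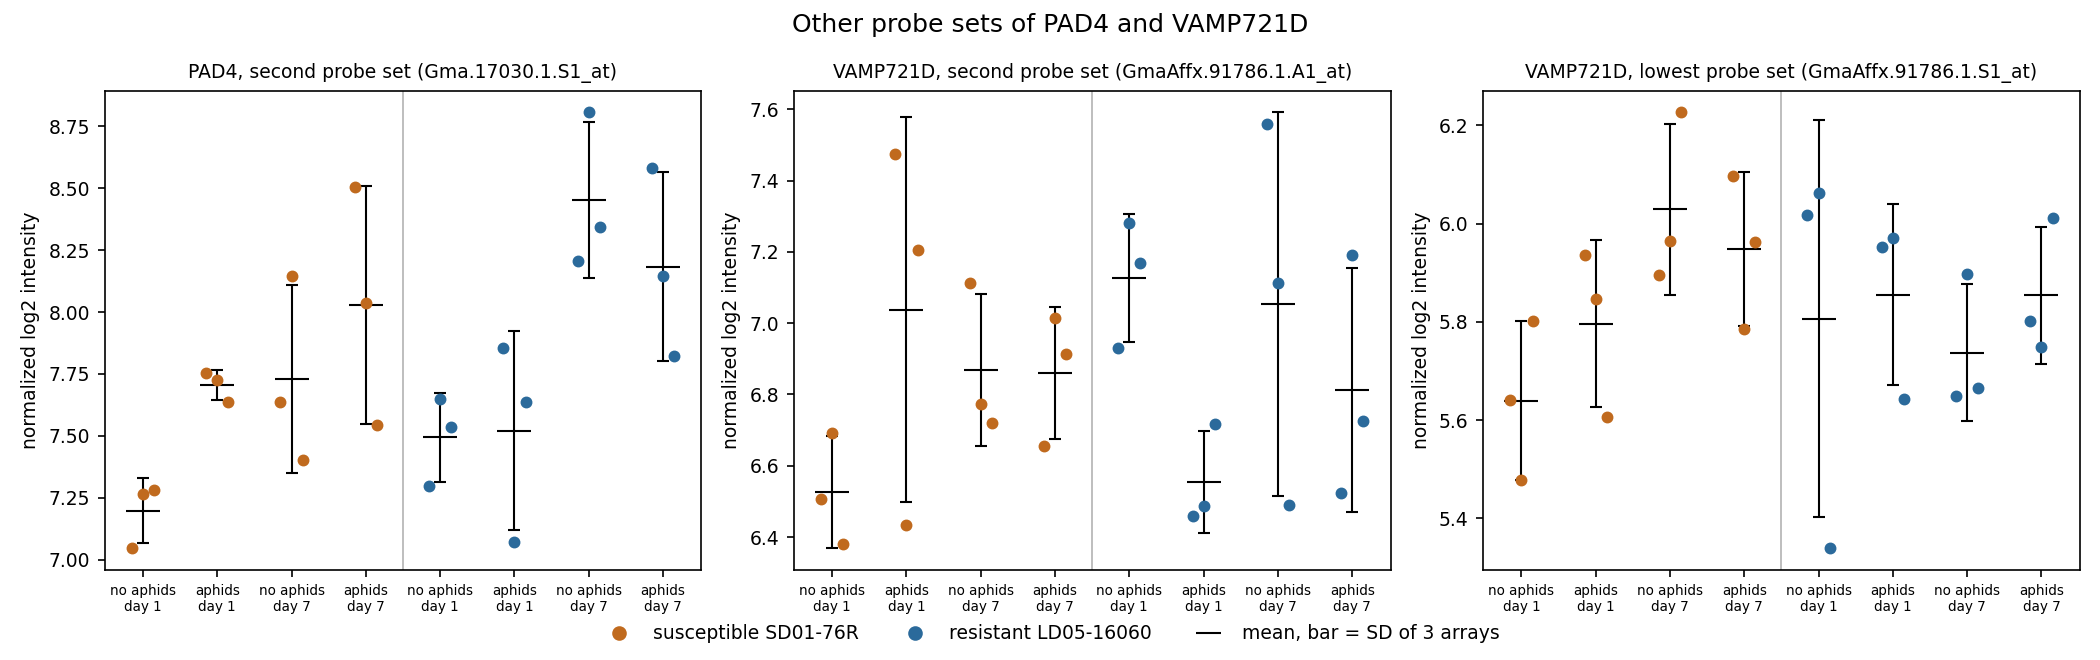
Normalized log2 intensity of the second PAD4 probe set and of the 2 dimmer VAMP721D probe sets, by group and array (points), with mean and SD of 3 arrays (bars). In the VAMP721D panels the cultivars cover much the same range over all groups, with values from 6.38 to 7.56 and from 5.34 to 6.23.

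Where 2 values are given for PAD4 from here on, the leading probe set comes first. The cultivar difference (resistant minus susceptible) was larger without aphids than with them on both days for PAD4, PBS1-2 and the leading and second VAMP721D probe sets, and on day 1 for PR10. For the lowest VAMP721D probe set it was -0.29 without and -0.09 with aphids on day 7. In uninfested leaves of day 1 it was 1.16 ± 0.39 (SE) for PAD4 by the leading and 0.30 ± 0.25 by the second probe set, 0.73 ± 0.17 for PBS1-2, 2.38 ± 0.75 for PR10 and 1.06 ± 0.13 for VAMP721D. With aphids on day 1 the same differences were 0.27, -0.19, 0.32, 0.02 and 0.66. For each of these 5 probe sets the infested value was thus the lower one, by 0.89, 0.48, 0.41, 2.37 and 0.40 log2 units in the same order.

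On day 7 the uninfested cultivar difference was 0.79 ± 0.39 and 0.72 ± 0.25 for the 2 PAD4 probe sets, 0.69 ± 0.17 for PBS1-2 and 0.89 ± 0.13 for VAMP721D. With aphids these were -0.34, 0.15, 0.28 and 0.58. PR10 went the other way, from -1.12 ± 0.75 without aphids to 0.09 with them. Averaged over the 4 conditions, the cultivar difference was 0.80 for VAMP721D, 0.50 for PBS1-2, 0.47 and 0.25 for PAD4 and 0.34 for PR10, against 0.06 and -0.04 for the other VAMP721D probe sets.

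The 3 arrays of each cultivar did not overlap for 6 of the 7 probe sets in uninfested leaves of day 1, where 39.6% of all soybean probe sets did not overlap. With aphids on day 1 this held for 1 of 7 (9.13% of all), without aphids on day 7 for 3 of 7 (23% of all), and with aphids on day 7 for 1 of 7 (11.1% of all). These differences chose the genes, and nothing is read from the counts.

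**Figure D3:**
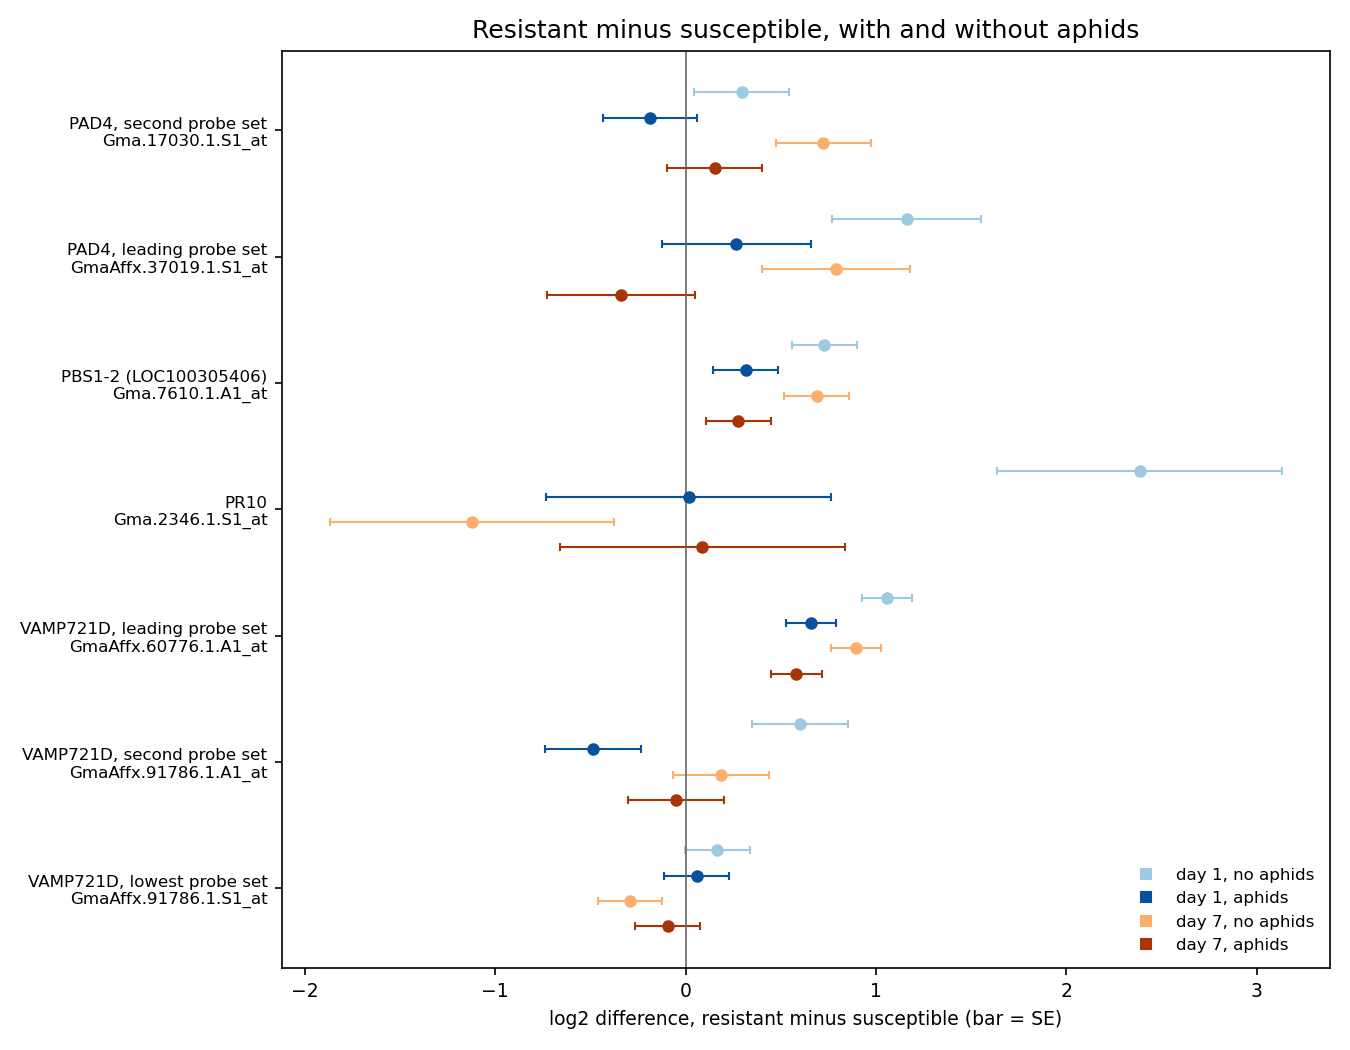
Log2 difference between cultivars (resistant minus susceptible, x axis) for 7 probe sets (y axis) in uninfested and infested leaves of day 1 and day 7, with the SE as bars. VAMP721D by the leading probe set stays between 0.58 and 1.06 in all 4 conditions, and PR10 runs from 2.38 to -1.12.

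Uninfested susceptible leaves of day 1, the reference of the uninfested differences of that day, had the highest 3' minus 5' signal, and the part of RNA quality in those differences was not tested beyond the values that follow. With that signal as a covariate, the uninfested difference of day 1 was 0.39 and -0.21 for the 2 PAD4 probe sets, 0.51 for PBS1-2, 0.83 for PR10 and 1.06 for VAMP721D. Without replicate 1 of that group, the PR10 difference was 1.27. Without replicate 1 of uninfested resistant leaves on day 7, the PR10 difference of that day was -0.23 and not -1.12. With no scaling of the deposited values, under which the median probe set lay -0.27 from 0 in infested leaves of day 7, PBS1-2 turned to -0.06 and VAMP721D stood at 0.23 there.

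Whether aphids moved these genes within a cultivar was tested next, infested minus uninfested. In susceptible leaves of day 1 the difference was 2.22 ± 0.75 for PR10, 0.75 ± 0.39 and 0.51 ± 0.25 for PAD4, 0.28 ± 0.17 for PBS1-2 and 0.18 ± 0.13 for VAMP721D. All 7 probe sets were above 0, with a median of 0.51 against 0.00 for all probe sets, and since the uninfested arrays also entered the choice of genes, nothing is read from that count. By limma 0 of 7 passed, where 5.01% of all soybean probe sets passed. At an unadjusted p of 0.05 PR10 alone of the 7 passed, where 9355 of all 37593 probe sets did. The adjusted p of PR10 was 0.0786 by limma, with a 95% confidence interval of 0.66 to 3.78. The PR10 value was 1.11 without replicate 1 of the uninfested group (adjusted p = 0.459 by limma), and 2.76 without replicate 2 of that group (adjusted p = 0.0453 by limma). For PAD4 the adjusted p was 0.237 and 0.211 by limma, and the 3 infested arrays lay above the 3 uninfested ones for both probe sets. The share of all probe sets without overlap was not counted for this comparison, so nothing is read from that separation. With the 3' minus 5' covariate the PAD4 values were 0.14 and 0.11, and without replicate 1 of the uninfested group 0.47 and 0.43. Phloem markers were lower in the infested group, with 0 of 14 probe sets above 0, a median of -0.40 and 0 calls, at a mean level of 6.96 ± 0.28 against 7.39 ± 0.28 (SD, n = 3). In resistant leaves of day 1 these markers went the other way, with 13 of 14 above 0, a median of 0.37 and 0 calls. Their part in the aphid effects was not tested.

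On day 7 in susceptible leaves the aphid effect was 0.60 ± 0.39 and 0.30 ± 0.25 for PAD4, 0.31 ± 0.17 for PBS1-2, -0.39 ± 0.75 for PR10 and 0.32 ± 0.13 for VAMP721D. None passed (0 of 7, against 2.84% of all probe sets). At an unadjusted p of 0.05 VAMP721D alone did (adjusted p = 0.203 by limma), where 6603 of all 37593 probe sets did. The sign of the PR10 value turned with no scaling, to 0.04.

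In resistant leaves of day 1 the aphid effects were -0.14 ± 0.39 and 0.03 ± 0.25 for PAD4, -0.13 ± 0.17 for PBS1-2, -0.15 ± 0.75 for PR10 and -0.22 ± 0.13 for VAMP721D. By limma 0 of 7 passed, and 0% of all soybean probe sets did so. At an unadjusted p of 0.05 the second VAMP721D probe set passed, with -0.57 ± 0.25, where 2865 of all 37593 probe sets did. On day 7 the values were -0.53 ± 0.39 and -0.27 ± 0.25 for PAD4, -0.10 ± 0.17 for PBS1-2, 0.82 ± 0.75 for PR10 and 0.01 ± 0.13 for VAMP721D. By limma 0 of 7 passed, where 0.00266% of all probe sets passed. At an unadjusted p of 0.05 also 0 of 7 did, against 1070 of all 37593. The 95% intervals still span -1.34 to 0.29 for PAD4 by the leading probe set and -0.27 to 0.28 for VAMP721D, so the precision for PAD4 was low at this number of arrays.

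**Figure D4:**
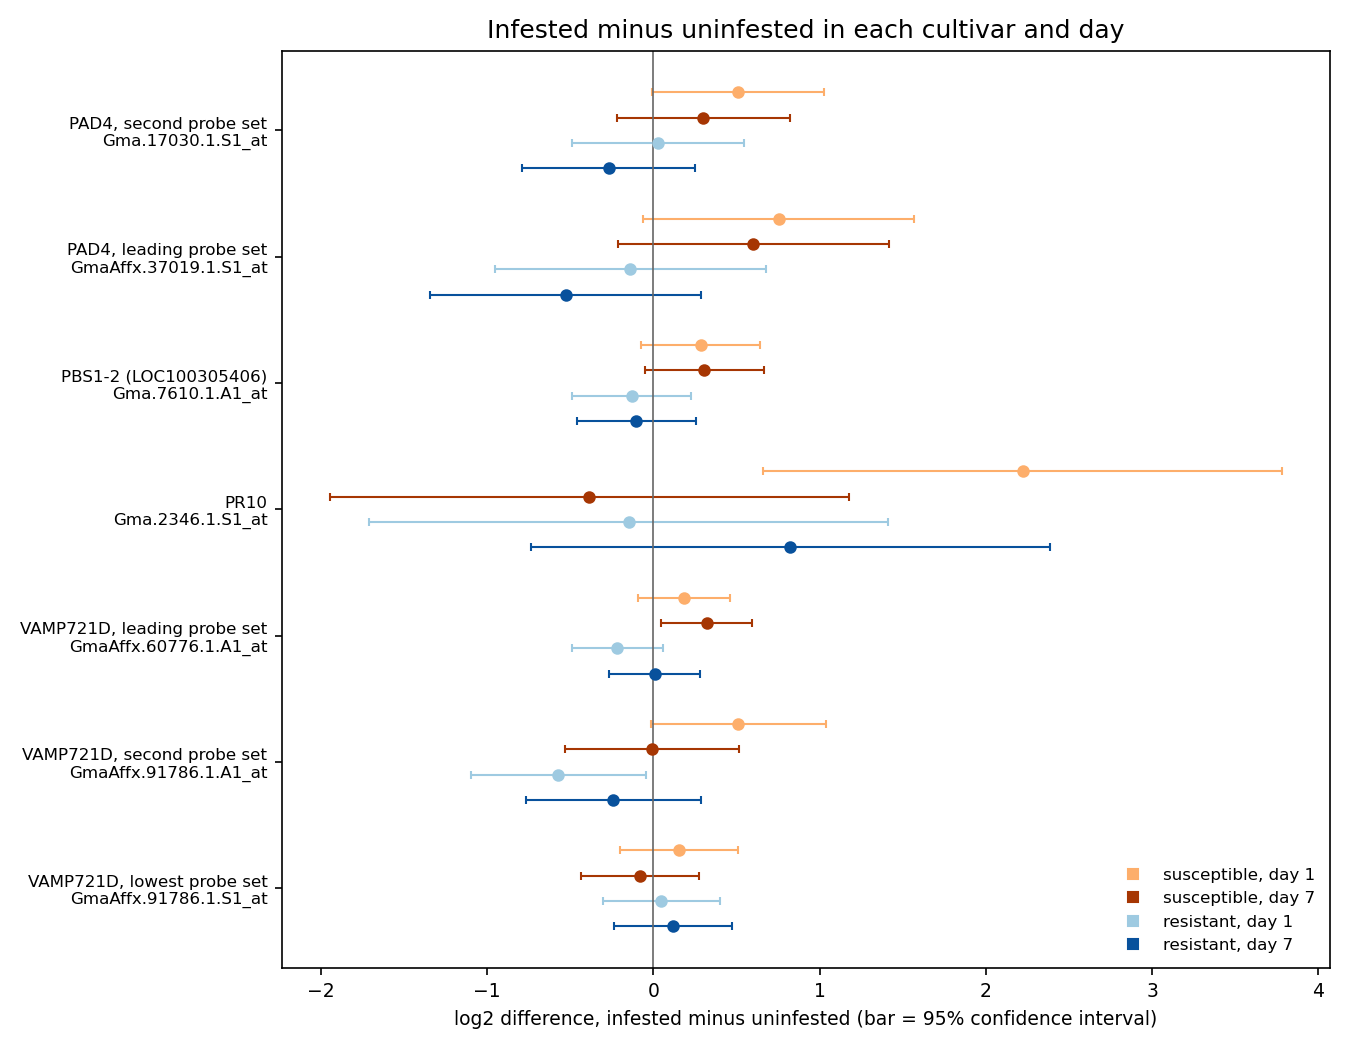
Log2 aphid effect (infested minus uninfested, x axis) of 7 probe sets (y axis) in each cultivar and day, with 95% confidence intervals as bars. No effect passed an adjusted p of 0.05, and the widest intervals are those of PR10, with 0.66 to 3.78 in susceptible leaves of day 1.

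Averaged over both cultivars and both days, a contrast added after the data were seen, the aphid effect was 0.63 ± 0.37 for PR10, 0.17 ± 0.19 and 0.14 ± 0.12 for PAD4, 0.09 ± 0.09 for PBS1-2 and 0.07 ± 0.07 for VAMP721D. By limma 0 of 7 passed, against 0.561% of all probe sets. At an unadjusted p of 0.05 also 0 of 7 did, against 4306 of all 37593.

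PAD4 and VAMP721D rose from day 1 to day 7 when the 4 combinations of cultivar and treatment were averaged, which is also a contrast added after the data were seen. The mean day difference (day 7 minus day 1) was 0.77 ± 0.19 for PAD4 by the leading probe set (adjusted p = 0.00573 by limma) and 0.62 ± 0.12 by the second probe set (adjusted p = 0.00107 by limma). These are 1.71-fold and 1.53-fold rises. VAMP721D rose by 0.30 ± 0.07 by its leading probe set, or 1.24-fold (adjusted p = 0.00188 by limma). Each of the 3 was above 0 in 4 of 4 combinations. The arrays of these combinations also entered the choice of genes. In all, 3 of 7 probe sets passed, where 28.8% of all soybean probe sets passed, so that a call here was common on the array.

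PBS1-2 had a mean day difference of 0.17 ± 0.09 (adjusted p = 0.153 by limma), also above 0 in 4 of 4 combinations. PR10 had 0.03 ± 0.37, with 1 of 4 combinations above 0. The other VAMP721D probe sets had 0.09 ± 0.13 and 0.12 ± 0.08 and did not pass. Leaf mesophyll markers were lower on day 7: their mean level over 18 probe sets was between 11.00 and 11.16 in the 4 groups of day 1 and between 10.65 and 10.92 in those of day 7. In the mean day difference 11 of these 18 fell and 1 rose, where 28.8% of all soybean probe sets passed. Of 14 phloem probe sets 9 fell, all of sieve element occlusion (SEO) genes, and 3 rose, all of the sucrose transporter SUT1, by 0.77 to 1.07. The part of leaf makeup or age in the day differences was not tested.

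In uninfested resistant leaves PAD4 by the second probe set rose by 0.96 ± 0.25, or 1.94-fold (adjusted p = 0.0353 by limma), the only call of 7, where 3.91% of all probe sets passed. It was not called without any 1 of the 6 arrays of that comparison (adjusted p of 0.0530 to 0.134 by limma), nor with no scaling (0.85, adjusted p = 0.143 by limma). The other PAD4 probe set read 0.72 ± 0.39 there (adjusted p = 0.357 by limma).

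In uninfested susceptible leaves 0 of 7 passed by limma (10.5% of all). At an unadjusted p of 0.05, 5 of 7 did, and 10104 of all 37593 probe sets did. The uninfested arrays of day 1 also entered the choice of genes, so nothing is read from that count. PAD4 had day differences of 1.09 ± 0.39 and 0.53 ± 0.25 there, VAMP721D 0.30 ± 0.13 and PR10 2.19 ± 0.75, with adjusted p of 0.0761, 0.177, 0.153 and 0.0650 by limma. For PR10 this became 1.08 without replicate 1 of day 1, and it was called without replicate 2 or without replicate 3 of day 1, at 2.73 and 2.77. PAD4 by the leading probe set was called without replicate 3 of day 7, at 1.44.

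In infested susceptible leaves 0 of 7 passed by limma (6.69% of all). At an unadjusted p of 0.05, 2 of 7 did, and 8434 of all 37593 probe sets did. VAMP721D had 0.43 ± 0.13 (adjusted p = 0.0530 by limma) and PAD4 0.94 ± 0.39 and 0.32 ± 0.25. VAMP721D was called without replicate 1 of day 1, at 0.59, and without replicate 3 of day 7, at 0.54. In infested resistant leaves 0 of 7 passed by limma (0.803% of all). At an unadjusted p of 0.05, 2 of 7 did, and 6265 of all 37593 probe sets did. The 2 were PAD4 by the second probe set, with 0.66 ± 0.25, and VAMP721D, with 0.36 ± 0.13. These single comparisons share arrays with the aphid effects and with each other.

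**Figure D5:**
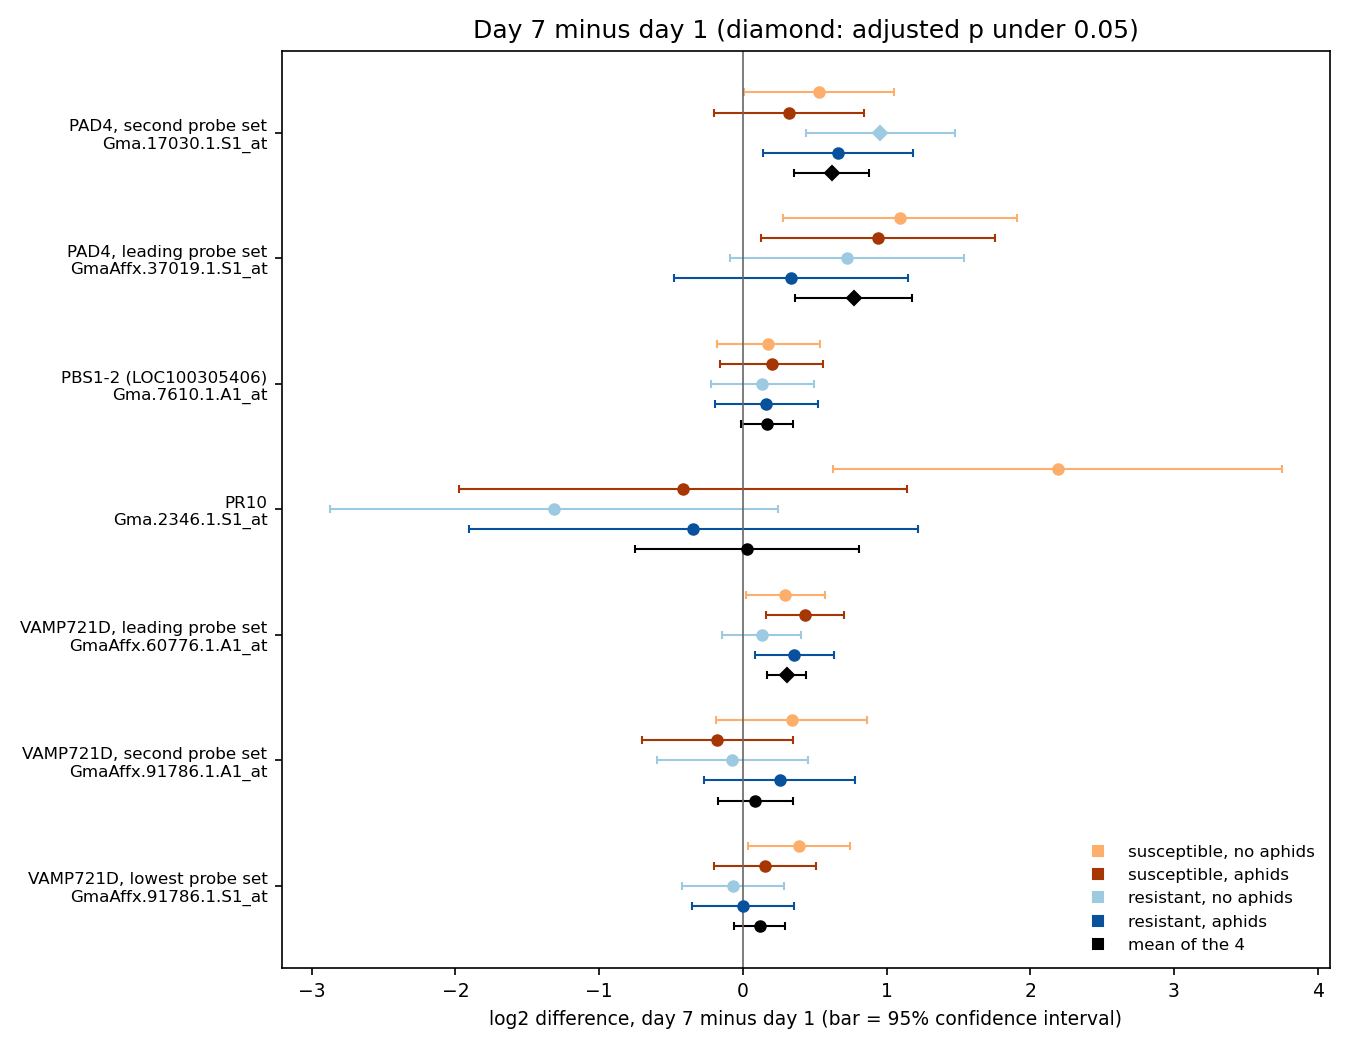
Log2 day difference (day 7 minus day 1, x axis) of 7 probe sets (y axis) in each cultivar and treatment and as the mean of the 4, with 95% confidence intervals as bars and diamonds for an adjusted p under 0.05. Both PAD4 probe sets and the leading VAMP721D probe set lie above 0 in all 4 combinations, with means of 0.77, 0.62 and 0.30.

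The genes whose levels ran most alike over the 24 arrays were sought among 1128 other genes with an informative name. For PAD4 by the leading probe set these were CRK11 (Pearson r = 0.90), LOC100170714, also named NAC21 (0.88), and NAC3 (0.87), and the least alike was GAI2 (-0.89). Over the 12 arrays of each cultivar, CRK11 had an r of 0.94 in susceptible and 0.84 in resistant leaves. For PR10 they were CYP82A2 (0.96), CHR1 (0.93) and AT133 (0.91), and the least alike was SCA2 (-0.85). CYP82A2 had an r of 0.97 in susceptible and 0.94 in resistant leaves. Each cultivar holds 1 low PR10 array. Without these 2 arrays the r with PR10 was 0.83 for each of CYP82A2, CHR1 and AT133, and -0.72 for SCA2.

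PBS1-2 and VAMP721D were each other's nearest gene, with an r of 0.86 over the 24 arrays and 0.98 over 8 group means. Both were chosen because they differed between the cultivars, so a high r over both cultivars follows in part from the choice. Since the cultivars form nearly separate clusters for VAMP721D, the r within each is the better description, and it was 0.73 in susceptible and 0.39 in resistant leaves. For deviations from the group means the r of PBS1-2 and VAMP721D was 0.34. GSTU27 was next for PBS1-2, with 0.86 in susceptible and 0.78 in resistant leaves, then SWEET17, with 0.82 and 0.63, and the least alike gene had -0.83 and -0.95. PAP25 was next for VAMP721D, with 0.75 in susceptible and -0.01 in resistant leaves, then UR9, with 0.69 and 0.58, and the least alike was PIP1-1, with -0.72 and -0.06. All of these are descriptions of arrays that share normalization and RNA quality.

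Other genes of the same pathways were read from lists matched by name. Immune regulators other than PAD4 and PBS1-2 gave 20 probe sets of 10 genes. For the aphid effect in susceptible leaves of day 1, 0 of 20 passed, where 5.01% of all probe sets passed. Of the 20, 16 were above 0, with a median of 0.45 against 0.00 for all probe sets. The uninfested group of this comparison had the highest 3' minus 5' signal, whose part was not tested, so nothing is read from that count. EDS1-2, the partner of PAD4, had 0.79 ± 0.33 there (adjusted p = 0.142 by limma), and PBS1-1 (listed as LOC100305422) -0.004 ± 0.11. In resistant leaves 0 of 20 passed on either day, where 0% of all probe sets passed on day 1 and 0.00266% on day 7. NDR1b, a homologue of a membrane protein needed for several immune receptors in Arabidopsis, was the only one that rose in the mean aphid effect, by 0.65 ± 0.11 (adjusted p = 0.00636 by limma). In that contrast 0.561% of all probe sets passed, and NDR1b did so in all 33 alternatives.

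RAR1-1, a chaperone partner of immune receptors, fell in infested against uninfested susceptible leaves of day 7, by 0.36 ± 0.09 on the log2 scale (adjusted p = 0.0409 by limma). That call held in 7 of 16 alternatives: it was lost without any array of the comparison but infested replicate 2, and the sign turned with no scaling, to 0.06. RAR1-1 also fell from day 1 to day 7 in infested susceptible leaves, by 0.44 ± 0.09 (adjusted p = 0.00971 by limma), again turned with no scaling, to 0.17. NDR1A fell in the mean day difference, by 0.60 ± 0.09 and 0.44 ± 0.08 for its 2 probe sets, and RIN4c by 0.18 ± 0.07. So 3 of 20 probe sets fell and 0 rose there, where 28.8% of all probe sets passed. The values for EDS1-2 and PBS1-1 were chosen after they were seen.

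For salicylate synthesis and perception, 6 probe sets of 3 genes could be read. In 3 of the aphid comparisons 0 of 6 passed. By the aphid effect in susceptible leaves of day 7, 1 of 6 fell, where 2.84% of all probe sets passed. It was 1 of 3 probe sets of PAL2.1, a phenylalanine ammonia-lyase that feeds lignin and isoflavonoids as well as salicylate, and it fell by 1.51 ± 0.40 (adjusted p = 0.0472 by limma). The call held in 8 of 16 alternatives and was lost without any array of the comparison but uninfested replicate 2, and with the replicate block (adjusted p = 0.0518 by limma). The other PAL2.1 probe sets had -1.37 ± 0.48 and 0.72 ± 0.26, neither of them called, so the probe sets listed for the gene have no single direction here. The called one and the one at 0.72 are of a kind shared between similar transcripts, so each may read several. EDS5, a transporter needed for salicylate accumulation in Arabidopsis, had -0.50 ± 0.18 in susceptible leaves of day 1 (adjusted p = 0.098 by limma). There the PAL2.1 probe set that had -1.37 on day 7 went the other way, with 1.06 ± 0.48, and was not called. In resistant leaves of day 7 the PAL2.1 probe set called in susceptible leaves had 1.25 ± 0.40, also not called.

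In the mean day difference 2 of 6 rose and 2 fell, where 28.8% of all probe sets passed. The same PAL2.1 probe set fell by 0.98 ± 0.20 (adjusted p = 0.00123 by limma) and another by 0.82 ± 0.24, while the remaining one had 0.26 ± 0.13 and was not called. The fall was not seen in uninfested susceptible leaves, where the first 2 had 0.34 ± 0.40 and 0.72 ± 0.48, neither called. In the other combinations both were below 0, from -0.59 in infested resistant to -1.84 in uninfested resistant leaves. Both rises were of STF2, by 0.81 ± 0.10 and 0.57 ± 0.09. STF2 is a bZIP protein that the list caught by its name, as a TGACG-motif binding factor. The name does not place it in salicylate perception, so its rise is not read as a change in that pathway. The first-named probe set of each gene passed in every alternative that kept it, 33 for PAL2.1 and 32 for STF2.

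Pathogenesis-related proteins other than PR10 gave 19 probe sets of 10 genes. With aphids in susceptible leaves of day 1, 1 rose and 1 fell, where 5.01% of all probe sets passed. Of the 19, 17 were above 0, with a median of 0.34. This comparison has the same uninfested group of high 3' minus 5' signal, so nothing is read from that count. H4, a relative of PR10, rose by 2.34 ± 0.62 (adjusted p = 0.0378 by limma), and PR10 had 2.22 in the same leaves. It held in 9 of 16 alternatives and was lost without any array of the comparison but uninfested replicate 2, and with the 3' minus 5' covariate (1.59). The probe set of H4 is of a kind shared between similar transcripts, so its copies cannot be told apart. LOC547822, the glucanase SGlu2, fell by 2.09 ± 0.44 (adjusted p = 0.0203 by limma). Its probe set is of the same shared kind. The SGlu2 call held in 13 of 16 alternatives and was lost, among others, without replicate 1 of either group. In resistant leaves 0 of 19 passed on either day, where 0% of all probe sets passed on day 1 and 0.00266% on day 7.

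On day 7 in susceptible leaves SGlu2 (LOC547822) was the only one of the 19 that passed, falling by 1.65 ± 0.44 (adjusted p = 0.0461 by limma). Of all probe sets 2.84% passed there. The SGlu2 call held in 7 of 16 alternatives and was lost, among others, without any array of the comparison but uninfested replicate 2. From day 1 to day 7 SGlu2 fell by 1.65 ± 0.22 in the mean day difference, where 28.8% of all probe sets passed. The 2 probe sets that rose, by 0.40 ± 0.11 and 0.28 ± 0.09, were both of OLPa, an osmotin-like protein. The vesicle fusion list held 5 probe sets of SNAP-1, an adaptor of SNARE recycling, and RHG1, listed also as a receptor-like kinase, beside VAMP721D. By limma 0 of the 5 passed in any of the 8 single comparisons, where 0 to 10.5% of all probe sets passed. The 2 of them with the smallest p for the aphid effect in susceptible leaves of day 1 were SNAP-1, with 0.23 ± 0.13, and RHG1, with -0.15 ± 0.15.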

How the data were processed

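The deposited values were log2 intensities of 24 arrays of 1 colour, biotin-labelled per the labels. RMA, GCRMA and limma appear in the submitters' processing notes, without role or version, and the summarisation is not stated there. Unlogged, 99.6% of the values were whole to within 0.01, while the medians of the arrays differed, from 7.00 to 8.04, so the soybean probe sets were quantile normalized with limma 3.58.1 in R 4.3.3, and 60 control probe sets were left out. Group means of the 8 groups were fitted with limma (lmFit, eBayes), with Benjamini-Hochberg adjustment over 37593 probe sets within each comparison. The fit was tested on simulated data.

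Genes came from the platform annotation, with 8652 of the single-gene probe sets found in the RefSeq table of Glycine_max_v4.0. A gene's leading probe set is the one with the highest mean; likeness took the 3 genes with the highest r and 1 with the lowest. From each list, genes that passed were named, otherwise those with the smallest p. Lists were matched by name, and 6 probe sets of 4 genes whose names matched by accident were dropped. The genes and lists were chosen with earlier results of these data known. Replicates are separate samples per the labels, with no word on pooling or separate cultures, so the p-values rest on the spread among these samples alone, and that spread could be technical. In infested susceptible leaves the same-numbered arrays of the 2 days deviated together (correlations of 0.304, 0.211 and 0.187), a pairing that comes from the data and not from the labels. No background estimate came with the values, and the 3 arrays per group limit the precision.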

Additional observations from a re-analysis of the deposited data

Results flagged for a closer look

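The day difference of PR10 had opposite signs in the uninfested leaves of the cultivars, and it was not called in either. By limma the adjusted p was 0.0650 in susceptible and 0.391 in resistant leaves. In resistant leaves the 95% confidence interval ran from -2.88 to 0.25. All 3 arrays of day 7 lay above all 3 of day 1 in susceptible leaves, with a difference of 2.19, and below all 3 of day 1 in resistant leaves, with a difference of -1.31. In resistant leaves the nearest arrays of the days, both 10.64 after rounding, were barely apart. The share of all probe sets without overlap between days was not counted, so nothing is read from the separation. Without the low array of each cultivar the differences were 1.08 and -0.43. The difference between the cultivars was not tested, because the genes were chosen on the cultivar difference.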

How the results depend on the processing

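The tested differences of both PAD4 probe sets, PBS1-2, PR10 and VAMP721D by its leading probe set were refitted. They kept direction and side of the threshold in 913 of 970 alternative values, with 7 calls lost, 17 gained and 33 signs turned. The other VAMP721D probe sets entered only the counts of called probe sets, of which 174 of 194 stayed within 1.5 times. Most of these differences were not called and most counts were 0 in the main fit, so these totals say little of the calls. The lost calls were of PAD4 by its second probe set in uninfested resistant leaves, called in 9 of 16 alternatives. The mean day differences of both PAD4 probe sets and of VAMP721D by its leading probe set passed in 33 of 33 alternatives each, with adjusted p by limma of 0.000228 to 0.0167. For the day difference in infested susceptible leaves the count was 1 with median centring, with probe sets above the median, with normexp, with array weights and with the 3' minus 5' covariate, and 4 with no scaling. With no scaling the median probe set moved from 0.00 to 0.48 there, and 11461 and not 2515 probe sets passed. In uninfested susceptible leaves the count was 1 with array weights, and in uninfested resistant leaves 0 with no scaling. Leaving out 1 array gave counts of 0 to 1 for the aphid effect in susceptible leaves of day 1 and for the day difference in uninfested and in infested susceptible leaves, and 0 in uninfested resistant leaves.

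Some signs turned, among them those of the called RAR1-1 values of -0.36 and -0.44, and for PR10 of values from -0.42 to 0.82. With no scaling these were the aphid effect of VAMP721D in resistant leaves of day 7 (-0.00669, and -0.0149 with median centring), of PR10 in susceptible leaves of day 7 (0.036), of PAD4 by its second probe set in resistant leaves of day 1 (-0.145), of RAR1-1 in susceptible leaves of day 7 (0.065), and the day differences in infested susceptible leaves of PR10 (0.147) and RAR1-1 (0.166). With the covariate PR10 turned to 0.151 and 0.159 in the same comparisons, to 0.456 for aphids in resistant leaves of day 1 and to -0.143 for the mean day difference, and PAD4 by its leading probe set to 0.159 in resistant leaves of day 1. With array weights PR10 read 0.083 there and -0.134 in the mean day difference. Without the 3 least alike arrays PR10 read 0.308 there, -0.063 for aphids in resistant leaves of day 7 and -0.141 in the mean day difference, and PAD4 by its leading probe set read 0.014. The cause was not tested.

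Leaving out 1 array gave ranges across 0 in resistant leaves. On day 1 these were -0.139 to 0.251 for PAD4 by its second probe set, -0.329 to 0.086 by its leading probe set and -0.402 to 0.308 for PR10. On day 7 they were -0.063 to 1.37 for PR10, -0.031 to 0.051 for VAMP721D and -0.19 to 0.028 for PBS1-2. The PR10 mean day difference ran from -0.249 to 0.251.

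Same-numbered arrays deviated together in 1 of 8 comparisons, the day difference in infested susceptible leaves, with all 3 correlations above 0.1. Over all comparisons 12 of 24 pairs were above 0.1, from -0.357 to 0.457, and 8 arrays correlated best with their own number. The replicate block changed no call of the 4 genes (PAD4 by its second probe set, 0.96, adjusted p = 0.0307 by limma) and lost that of PAL2.1 (-1.51, adjusted p = 0.0518 by limma).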
